A study of Mus musculus with 8 samples.

Results

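The miRNAs described here are a set known as restricted to, or abundant in, tissues other than mesenchyme. The question was which of them could be seen in C3H10T1/2 cells and whether any changed with IhhN induction. They were chosen by miRNA number, with any letter and arm, in 7 lineage groups. The muscle group held miR-1, miR-133, miR-206, miR-208 and miR-499, and the neural group miR-9, miR-124, miR-128 and miR-138. The liver group was miR-122, the endocrine group miR-375, the blood group miR-142, miR-144, miR-150, miR-223 and miR-451, and the epithelial group miR-141, miR-200 and miR-429. The pluripotent group held miR-290 to miR-295 and miR-302. The array measured 55 such mouse miRNAs, with 149 probes, of 611 mouse miRNAs in all.

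C3H10T1/2 is a mouse mesenchymal cell line that can turn into bone, cartilage, fat and muscle cells and responds to hedgehog ligands. The WT group was incubated for 48 h with 750 nM wild type IhhN, the signaling part of Indian hedgehog, and the MT group with the same dose of IhhN carrying the E95K mutation, which is linked to a hereditary shortening of the fingers. The control group was incubated for 48 h and is labelled as not induced with protein, although another of its labels repeats the 750 nM dose. Both proteins were recombinant human IhhN made in bacteria, and all groups used the one cell line, with no other allele or agent given. Each group had 2 RNA samples. The WT samples were each run on 2 arrays and the others on 1, which gave 8 one-colour Agilent arrays on 1 slide. The study's methods say that induction assays were made in triplicate, but no source ties the 2 RNA samples of a group to separate inductions, so p-values measure only the spread between these samples, which may be technical.

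miRNAs are short RNAs that pair with messenger RNAs mainly through their seed, the bases 2 to 8 from the 5′ end, and lower the output of these messengers. Some are made almost only in 1 tissue or cell state. miR-1, miR-133 and miR-206 belong to muscle, miR-124 and miR-9 to neurons and their precursors, miR-122 to hepatocytes, miR-375 to endocrine pancreas, miR-142, miR-223 and miR-451 to blood cells, the miR-200 family to epithelium, and the miR-290 to miR-295 and miR-302 clusters to pluripotent cells.

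RefSeq (GRCm38.p6) gave a mature sequence for 42 of the 55 miRNAs, 4 of them under a newer name. The other 13 were miR-1a-3p, miR-1b-5p, miR-122-5p, miR-124-3p, miR-124-5p, miR-133a-3p, miR-133a-5p, miR-142-3p, miR-142-5p, miR-150-5p, miR-292-3p, miR-302a-3p and miR-375-3p. The sequences of the 2 miRNAs that were detected on any array come first, because the results turn on them, with the seed in capitals.
miR-128-3p: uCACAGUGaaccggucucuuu
miR-290-3p: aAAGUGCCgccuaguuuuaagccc
Neither seed was shared with another of the 42. However, bases 2 to 7 of miR-290-3p, AAGUGC, were found in 7 of the 42, itself included, all of the pluripotent group. miR-292-3p and miR-302a-3p of that group had no sequence to compare. The other 6 are shown because none of them was detected.
miR-291a-3p: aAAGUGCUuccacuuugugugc
miR-291b-3p: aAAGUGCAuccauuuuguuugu
miR-294-3p: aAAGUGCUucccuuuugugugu
miR-295-3p: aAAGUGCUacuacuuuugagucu
miR-302b-3p: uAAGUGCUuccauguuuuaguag
miR-302d-3p: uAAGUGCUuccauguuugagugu
Of these 7, all but miR-290-3p and miR-291b-3p also shared base 8, which gave 5 members the seed AAGUGCU. The likeness went further in some pairs. miR-302b-3p and miR-302d-3p differed by U18G, A22G and G23U alone. In all, the 42 sequences held 29 distinct seeds, and no detected mouse miRNA outside the lineage groups shared one of them, among the 480 mouse miRNAs of the array that matched RefSeq.

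The mature miR-128-3p is made from 2 genes and its sequence is the same in both, so the array cannot tell them apart. Mir128-1 places it at chr1:128202404-128202424 on the plus strand, and this gene overlaps the protein-coding gene R3hdm1. Mir128-2 places it at chr9:112118644-112118664 on the minus strand and overlaps Arpp21, a protein-coding gene known for its expression in brain. Both precursors are shown with the mature miRNA in capitals, to show that they differ outside it.
Mir128-1: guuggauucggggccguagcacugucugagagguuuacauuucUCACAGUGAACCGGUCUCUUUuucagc
Mir128-2: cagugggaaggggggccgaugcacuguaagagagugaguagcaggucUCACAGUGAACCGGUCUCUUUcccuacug
RefSeq calls miR-290-3p miR-290a-3p, and its precursor Mir290a lies at chr7:3218626-3218708 on the plus strand.

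Feature Extraction, the scanner software, marks each spot that lies well above background. A probe counted as detected where more than 50% of its spots carried this mark, and a miRNA where any of its probes did. By this rule 2 of the 55 miRNAs (3.6%) were detected on at least 1 array and 0 on all 8. Of all 611 mouse miRNAs, 162 (26.5%) were detected on at least 1 array and 103 (16.9%) on all 8. The muscle group had 0 of 9 detected, the blood group 0 of 7, the epithelial group 0 of 9, and the single members of the liver and endocrine groups were not detected. The neural group had 1 of 7 detected, miR-128-3p, and the pluripotent group 1 of 21, miR-290-3p. These are counts of miRNAs, which have no replicate error, so no test was made of them.

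**Figure D1:**
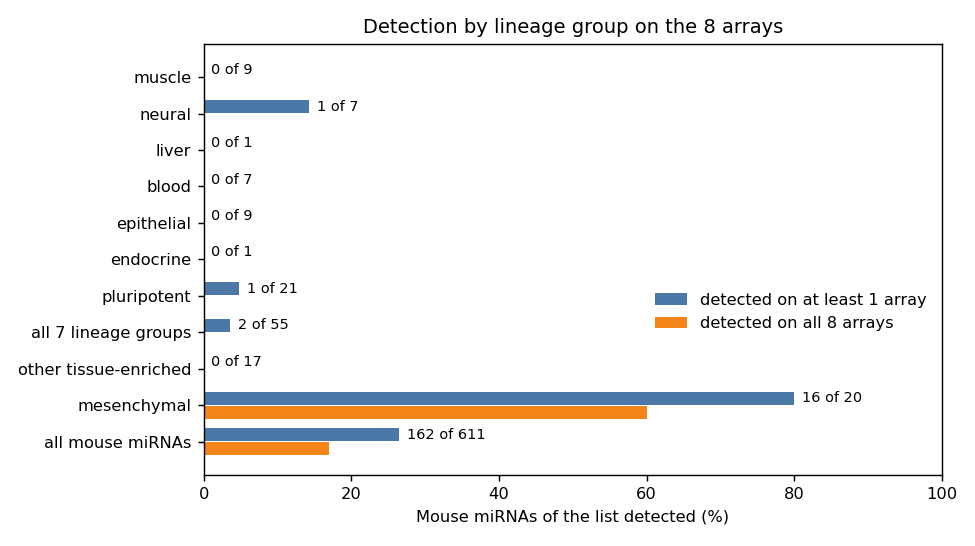
Horizontal bars give the percent of the mouse miRNAs of each list that were detected on at least 1 array (upper bar) and on all 8 arrays (lower bar), with the counts behind the upper bar. The 7 lineage groups together had 2 of 55 detected, against 16 of 20 in the mesenchymal list.

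A list of miRNAs usual in mesenchymal cells (miR-21, miR-22, miR-29, miR-31, miR-143, miR-145, miR-199 and miR-214) was set beside the labelled cell type. It was chosen with earlier results of these data known, so its counts are a description and no independent check. Of its 20 members, 16 were detected on at least 1 array and 12 on all 8. The 3 with the highest mean level were miR-21-5p, with a scaled log2 signal of 10.87 to 12.29 over the arrays, miR-199a-3p with 10.38 to 10.78 and miR-29a-3p with 10.19 to 10.63. A further list of tissue-enriched miRNAs (miR-96, miR-126, miR-129, miR-137, miR-153, miR-182, miR-183, miR-192, miR-194, miR-215, miR-216, miR-217 and miR-219) had 0 of 17 detected. The share of spots marked well above background was 1.3% of 8391 spots for the 55 miRNAs, 62.52% for the mesenchymal list and 18.52% for all mouse miRNAs.

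The level behind these calls was set against the negative control spots of the same array, whose mean signal was 3.92 to 4.94 signal units after background subtraction. For each miRNA the probe with the highest mean signal over the arrays was taken. Of the 53 miRNAs that were detected on no array, 27 (50.9%) lay below the negative control mean on all 8 arrays, 3 (5.7%) lay above it on all 8, and the other 23 lay on both sides. Among all 449 mouse miRNAs detected on no array the shares were 50.1% and 7.3%, close to those of the 53.

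**Figure D2:**
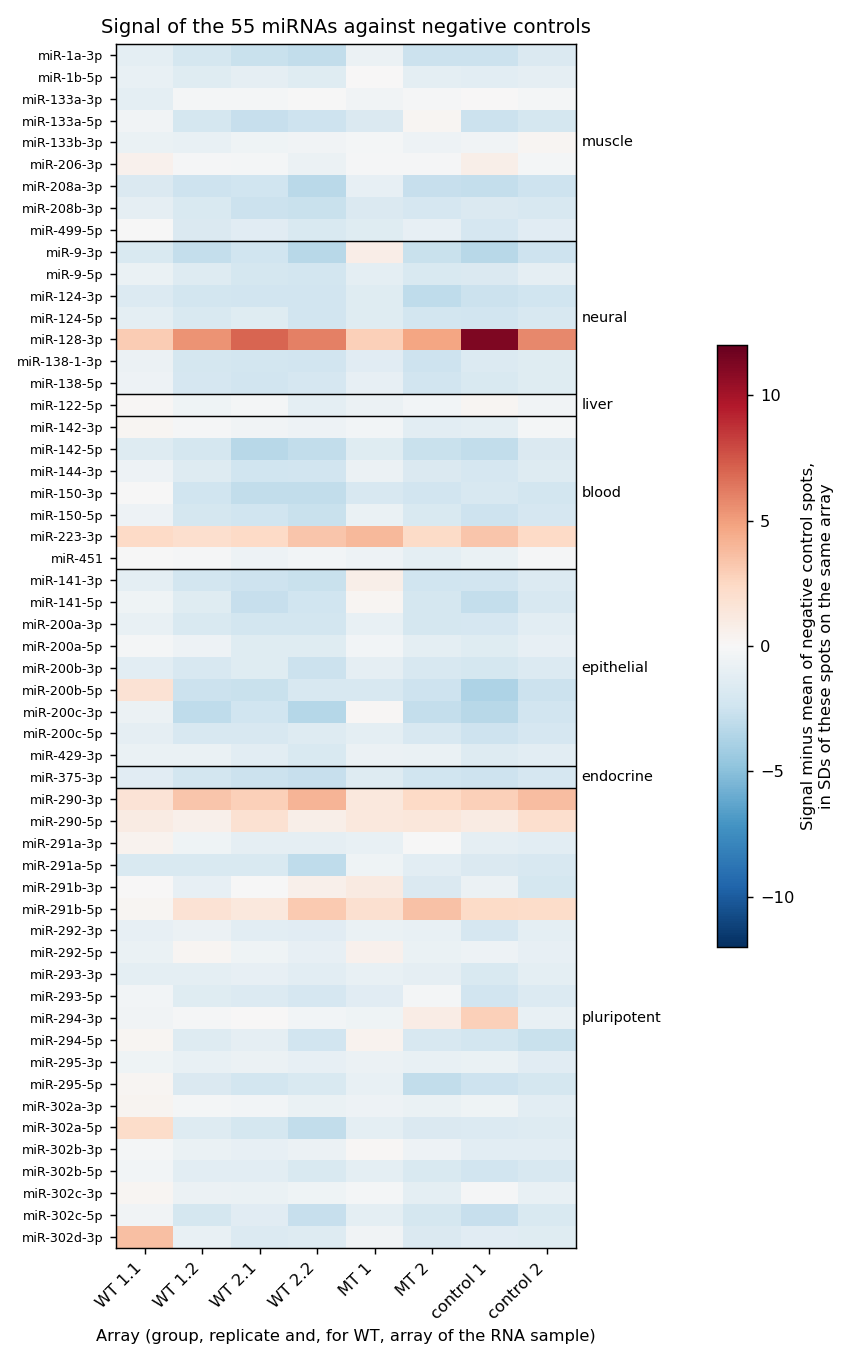
Rows are the 55 miRNAs by lineage group and columns the 8 arrays. Colour gives the signal of the brightest probe minus the mean of the negative control spots, in SDs of these spots on the same array, with red above and blue below. miR-128-3p is the reddest row. miR-290-3p, miR-223-3p, miR-291b-5p and miR-290-5p also lie above the negative control mean on all 8 arrays, on some of them by little.

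miR-128-3p, which is abundant in brain, was detected on 5 arrays, namely both control arrays, both arrays of WT replicate 2 and MT replicate 2. Its signal was 24.6 and 24.2 units on the arrays of WT replicate 1 and 25.8 and 22.2 on those of WT replicate 2. It was 21.2 and 17.9 in the MT replicates and 36.8 and 23.9 in the control replicates. Every one of these values lay above the negative control mean of its array. Before scaling, the WT and control values overlapped, while both MT values lay below those of the other groups. The lowest value, 17.9 in MT replicate 2, counted as detected with 80% of its spots well above background. In contrast, 24.6 on the first array of WT replicate 1 did not, with 0% of its spots.

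The negative control spots moved with this. Their SD was 6.63 and 3.76 on the 2 arrays of WT replicate 1 and 5.61 in MT replicate 1, the 3 arrays without detection, and 2.91 to 3.38 on the 5 arrays with it. Both arrays with an SD over 5 lay in the first column of the slide. The part of array noise in the call was not tested. The second probe of miR-128-3p was detected on no array, with at most 33% of its spots well above background.

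miR-128-3p was the only one of the 55 that was detected on all arrays of a group, the control group, and so the only one in the main test for a change. Scaling set the 75th percentile over the 174 probes that every array detected to one level. The array factors differed, and on the scaled signal all 3 groups overlapped. The scaled signal of miR-128-3p was 26.1 and 26.6 on the arrays of WT replicate 1, and 23.7 and 26.1 on those of WT replicate 2. It was 24.8 and 21.5 in the MT replicates and 24.3 and 20.5 in the control replicates. On the log2 scale, with the arrays of a sample averaged, the means were 4.68 ± 0.06 (SD, n = 2) in the WT group, 4.53 ± 0.15 (SD, n = 2) in the MT group and 4.48 ± 0.18 (SD, n = 2) in the control group. The values of the 2 WT samples, 4.72 and 4.63, were both above the 2 control values, 4.60 and 4.36, but by little.

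None of the 3 comparisons passed the test, limma across all mouse miRNAs that every array of some group detected, with Benjamini-Hochberg adjustment. miR-128-3p was 0.20 higher on the log2 scale in WT than in control (SE 0.17, 95% interval -0.20 to 0.59, adjusted p = 0.43). It was 0.05 higher in MT than in control (interval -0.34 to 0.44, adjusted p = 0.83) and 0.15 higher in WT than in MT (interval -0.25 to 0.54, adjusted p = 0.99). As folds, the interval of WT over control was 0.873 to 1.51. So 0 of the 1 miRNA tested was called in each comparison, where 0.0% of all mouse miRNAs tested were called too. At an unadjusted p under 0.05 the count stayed at 0 of 1, while 28.2% of all tested were called in WT against control, 39.4% in MT against control and 0.0% in WT against MT. These background counts, 40 and 56 miRNAs against control, fell to 3 and 26 with scaling over all mouse probes. With a term for the left or right side of the slide they were 4 and 0. Only WT had samples on both sides, so that term was set by WT replicate 1 against WT replicate 2 alone. In MT against control it cannot tell side from group. Both MT arrays lay on the left and both control arrays on the right. For WT against control, that term gave miR-128-3p the same difference, 0.15, as leaving out WT replicate 1.

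**Figure D3:**
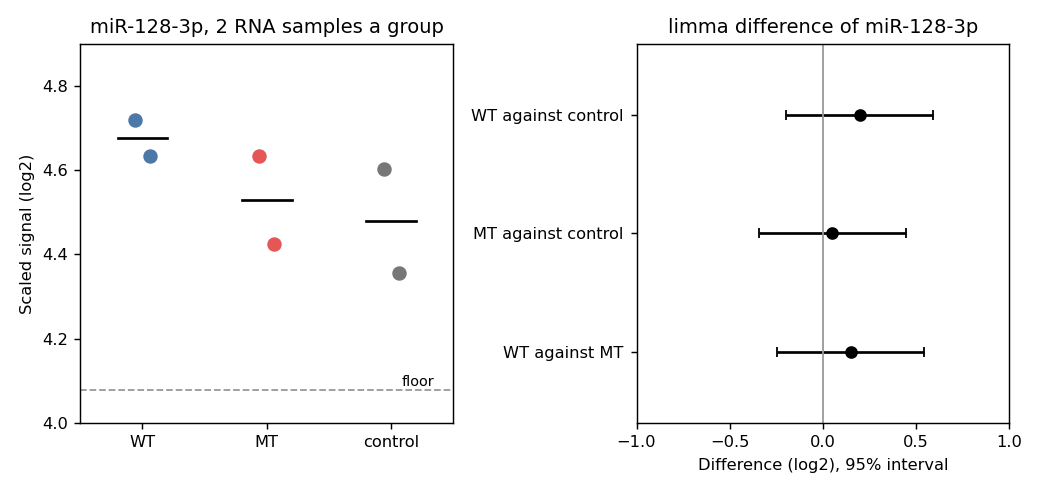
The left panel gives the scaled log2 signal of miR-128-3p in the 2 RNA samples of each group as points, with the group mean as a line and the floor set for low values as a dashed line (the axis does not start at 0). The right panel gives the limma log2 difference of each comparison with its 95% interval, and all 3 intervals include 0.

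The size and sign of these differences depended on how the arrays were put on one scale. The median of all tested miRNAs was itself shifted by 0.11 in WT and 0.13 in MT against control, and relative to that median miR-128-3p differed by 0.09 and -0.08. Another alternative corrected the median spot signal with normexp, which fits the spot and background signals of each array. It added an offset of 50 units before scaling and set no floor. That offset was above the highest unscaled processed signal of miR-128-3p, 36.8 units. The adjusted p of miR-128-3p (limma) then fell to 0.013 in WT against control and 0.039 in MT against control. The parts of the correction, the offset and the missing floor in this were not tested. The log2 differences were then 0.50 and 0.41, the median of all tested miRNAs moved to 0.34 and 0.33, and 68 and 65 of the tested miRNAs were called. When the scaling percentile was taken over all mouse probes, the differences turned to -0.10 and -0.45, beside medians of -0.19 and -0.51. WT arrays filled 1 row of the slide and MT and control arrays the other, so row and group cannot be told apart for the WT comparisons. With a term for the left or right side of the slide, MT against control was -0.04 (adjusted p = 0.98, limma). That term was set by the difference between the WT replicates alone, since MT and control each lay on 1 side.

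miR-290-3p, from the first hairpin of the cluster active in mouse embryonic stem cells, was detected on 1 array, the second array of WT replicate 2, where 3 of 5 spots of 1 of its 4 probes were well above background. The signal of that probe was 15.0 and 16.4 units on the arrays of WT replicate 1, and 13.2 and 16.4 on those of WT replicate 2. It was 11.9 and 11.0 in the MT replicates and 12.4 and 16.8 in the control replicates. The highest value was therefore on a control array, and the array with the detection did not stand apart from it. All 8 values lay above the negative control mean. On the scaled signal the WT arrays ran from 12.1 to 19.3, the MT arrays from 13.3 to 13.9 and the control arrays from 8.2 to 14.4, so WT overlapped both other groups. miR-290-3p was detected on all arrays of no group and so did not enter the main test. Without the filter on detection its log2 difference was 0.07 in WT against control (adjusted p = 0.64) and 0.07 in WT against MT (adjusted p = 0.86), and both MT and control lay at the floor.

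Among the blood miRNAs, miR-223-3p, known from granulocytes and their precursors, was detected on no array but lay above the negative control mean on all 8. Its signal was 20.4 and 11.7 units on the arrays of WT replicate 1, 11.9 and 14.1 on those of WT replicate 2, 26.8 and 10.7 in the MT replicates and 13.9 and 12.5 in the control replicates. The highest value, in MT replicate 1, was a mean over 10 spots that ran from 8.9 to 84.6 with a median of 14.8. The first array of WT replicate 1 gave 20.4, and the second array of the same RNA gave 11.7. The next highest blood miRNA was miR-142-3p, made in most white blood cells, with 0.2 to 5.6 units. miR-144-3p and miR-451, named after their values were seen and both known from red cell precursors, were below the negative control mean on every array, with 5 of the 7 in this group in all.

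Of the 20 other pluripotent miRNAs, 2 lay above the negative control mean on all 8 arrays, miR-291b-5p with 6.0 to 15.6 units and miR-290-5p with 6.1 to 12.3. Both are 5p arms of the miR-290 to miR-295 cluster. miR-291a-5p, named after its values were seen because its sequence is so close to that of miR-291b-5p, had -7.7 to 2.3 units and lay below the negative control mean on all 8.
miR-290-5p: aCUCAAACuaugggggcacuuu
miR-291b-5p: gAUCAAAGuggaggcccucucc
miR-291a-5p: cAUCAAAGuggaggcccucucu
Counted from 1 at the 5′ end, miR-291a-5p differs from miR-291b-5p by C1G and U22C alone, and the pair shares its seed. By their brightest probes, 1 member of this pair thus lay above the negative control mean on each array and the other below. The 4 probes of miR-291b-5p disagreed, however, and lay above that mean on 8, 8, 5 and 2 arrays. miR-291b-5p had 6.0, 10.4, 8.4 and 13.7 units on the WT arrays, 15.6 and 14.3 on the MT arrays and 10.8 and 11.8 on the control arrays. On the scaled signal of this brightest probe the MT arrays had 17.2 to 18.3. They lay above the WT arrays, with 6.3 to 16.1, and the control arrays, with 7.1 to 10.1. In each of its other probes the scaled MT values overlapped those of WT. Without the filter on detection, miR-291b-5p differed by 0.07 on the log2 scale in MT against control (adjusted p = 0.56, limma). In that fit most values lay at the floor.

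**Figure D4:**
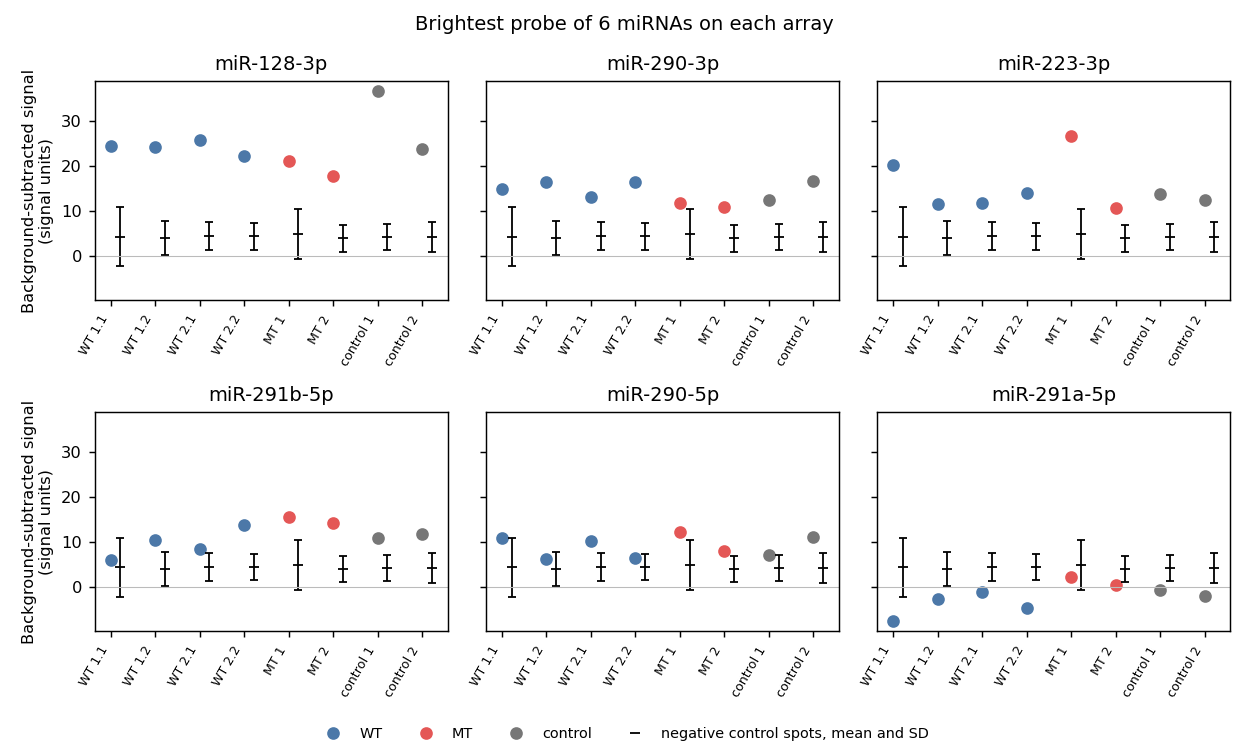
Points give the background-subtracted signal, in signal units, of the brightest probe of 6 miRNAs on each of the 8 arrays, coloured by group. Dashes with bars give the mean and SD of the negative control spots of the same array. miR-128-3p lies between 17.9 and 36.8, and miR-291a-5p lies at 2.3 or lower on every array.

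In the muscle group, miR-206-3p, which is made in skeletal muscle, had the highest mean, with a signal of 2.2 to 7.9 units, and miR-133a-3p, of skeletal and heart muscle, followed with -3.6 to 4.4. They lay above the negative control mean on 2 arrays and 1 array. None of the 9 muscle miRNAs lay above it on all 8, and 4 lay below it on all 8.

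In the neural group, 5 of the 6 undetected miRNAs lay below the negative control mean on all 8 arrays. The highest means among the 6 belonged to miR-9-5p, with -2.1 to 0.5 units, and miR-138-5p, with -3.5 to 0.2. In the epithelial group, miR-200a-5p had 0.1 to 3.3 units and miR-429-3p -0.9 to 1.6, and 5 of the 9 lay below the negative control mean on all 8 arrays. miR-122-5p, the liver miRNA, had 0.8 to 5.4 units and lay above that mean on 2 arrays. miR-375-3p had -5.0 to -2.5 units and lay below it on all 8.

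For most undetected miRNAs the highest of the 8 values lay on 1 of 2 arrays. The first array of WT replicate 1 and the array of MT replicate 1, those with the widest negative control spots, held the highest signal of 34 of the 53 (64.2%), beside 300 of 449 (66.8%) among all undetected mouse miRNAs. The number of the 53 above the negative control mean plus 1 SD of the same array was 4 on each of these 2 arrays and 2 to 4 on the others. The WT sample among them was also run on a second array. miR-302d-3p, named after its values were seen, had 28.0 units on the first array of WT replicate 1 and 0.5 on the second, and on the other 6 arrays it had -1.3 to 2.6. On that first array 2 of its 6 spots were well above background, with a highest spot of 104.5 and a median of 0.4. miR-302a-5p, chosen in the same way, had 19.2 units on that array and -1.9 on the second. Without these 2 arrays, 2 of the 55 miRNAs were still detected and miR-128-3p in MT against control was -0.06 (adjusted p = 0.91).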

How the data were processed

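RNA was extracted with TRIZOL and hybridised for the authors to one-colour Agilent miRNA arrays. The authors deposited scanner output with the intensity of each spot after background subtraction, the well-above-background and outlier marks, used as other values, and the median spot and background signals. Per the file headers the software was Feature Extraction 10.7.1.1 with build mm9, while the submitters' processing notes name version 9.1. No normalization is given in the sources used here. The deposited series table equals the processed signal within 0.005 units.

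Control and outlier spots were left out, the spots of a probe averaged, arrays scaled to the 75th percentile of 174 probes, a floor of 4.08 set on the log2 scale, and WT arrays of one RNA sample averaged. The miRNAs that every array of some group detected were fitted with limma 3.58.1 in R 4.3.3 (lmFit, eBayes, Benjamini-Hochberg, threshold 0.05) without a replicate block. Figures used matplotlib 3.10.9. The fit was also run on simulated data. These had the observed mean and spread of each miRNA and independent normal noise, with no floor and no shift shared by an array. There it called 18 of 20 4-fold changes, 8 of 10 2-fold changes and 0 unchanged miRNAs in WT against control. The counts were 20, 8 and 2 in MT against control, and 20, 7 and 3 in WT against MT. They check the code and do not give the power for members near the floor. The 55 miRNAs and the lists were chosen with earlier results of these data known. Named were all detected members, up to 2 undetected members a lineage by mean scaled signal, and 3 of the mesenchymal list, beside those marked as named after their values were seen. The number of arrays limits the precision.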

Additional observations from a re-analysis of the deposited data

Results flagged for a closer look

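miR-290-3p was detected on 1 array, which held WT IhhN-induced RNA, and on 0 control arrays, while it did not enter the main test for changes. Without the filter on detection its log2 difference was 0.07 in WT against control (adjusted p = 0.64, limma). On the first array of the same RNA it was not detected, and its highest unscaled signal, 16.8 units, was on a control array. On the scaled signal the array with the detection was highest, with 19.3, and that control array had 14.4. The part of array noise in this detection was not tested.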

How the results depend on the processing

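The count detected on at least 1 array was 18 where any spot of a probe sufficed, 1 where all spots were needed, 6 by Feature Extraction's own call and 5 by a signal above the negative control mean plus 3 SD. These were 32.7%, 1.8%, 10.9% and 9.1% of the members, beside 50.2%, 24.2%, 32.7% and 31.3% of all mouse miRNAs. Leaving out each replicate in turn gave 1 to 2, with 1 without WT replicate 2, beside 25.5% to 26.5% of all mouse miRNAs. The count on all arrays was 1 by Feature Extraction's own call (miR-128-3p), and 0 under every other rule and with each replicate left out. Of all 611 mouse miRNAs, 121 were detected on all arrays by that call. The other rules gave 90 to 119, and leaving out a replicate gave 103 to 106.

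The number of members past an adjusted p of 0.05, and of those with an unadjusted p under 0.05, was 1 under normexp in WT against control and in MT against control. With outlier spots kept, the count at an unadjusted p under 0.05 was 1 in WT against control and in WT against MT, where miR-128-3p differed by 2.82 and 2.80, and 30 and 2 of all tested miRNAs had such a p. All other alternatives run gave 0 in each comparison. In WT against control miR-128-3p turned to -0.10 with scaling over all mouse probes. In MT against control it turned to -0.45 with that scaling, -0.11 with the 50th percentile and -0.25 with quantile normalization. It turned to -0.04 with a term for the left or right side of the slide, which coincides with group in this comparison. Without the 2 arrays of widest negative controls, an alternative added after seeing the data, it turned to -0.06. The total gene signal of miR-128-3p was 8855.6 and 8924.2 in WT replicate 1 but 26.7 and 22.3 in WT replicate 2. It was 7811.4 and 7839.6 in the MT replicates, and 36.3 and 7789.4 in the control replicates. These totals matched the sum over its probes on 3 of the 8 arrays. With them the difference turned to -4.16 in WT against MT and moved to 4.38 in MT against control. Leaving out each replicate gave 0.07 to 0.32 in WT against control, -0.07 to 0.17 in MT against control, negative without MT replicate 1 or control replicate 2, and 0.04 to 0.25 in WT against MT. The cause was not tested. With 2 times the floor, or only miRNAs detected on all 8 arrays, no member could be tested.

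With 2 RNA samples a group, the data do not settle whether replicate numbers pair the samples. The correlations of deviations were 0.02 between WT and MT, 0.39 between WT and control, and -0.46 between MT and control. With the replicate block miR-128-3p kept 0.20, 0.05 and 0.15, and 0 members were called. With crossed numbers for MT and control, added after seeing the data, 58 of the tested miRNAs were called and 0 of these were members. Signal over background limits the comparison, since 53 of the 55 members were detected on no array.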

Other observations

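The deposited files also hold a total signal per miRNA from Feature Extraction, with that software's own detection call. By that call 6 of the 55 miRNAs (10.9%) were detected on at least 1 array, beside 32.7% of all mouse miRNAs. They were miR-128-3p on 8 arrays, miR-223-3p and miR-290-3p on 6 each, miR-291b-5p on 2 and miR-290-5p and miR-302d-3p on 1 each. For miR-128-3p the total was up to 8924.2 units where the sum over its probes was at most 36.3, and it matched the sum within 1% on 3 of the 8 arrays. For miR-290-3p the total reached 350.8 where the sums ran from 15.8 to 20.3, and for miR-223-3p it reached 189.0 where the sums ran from 15.4 to 25.2. Over all mouse miRNAs with this call, 28.8% to 35.7% per array did not match. The cause was not tested, and the totals were used only as an alternative.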
